A study of Mus musculus with 8 samples.

Results

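The proteasome subunits were taken as the genes whose symbol is Psma, Psmb, Psmc or Psmd followed by a number, which gave 39 of the 22553 genes in the deposited table. They hold 7 alpha and 7 beta subunits of the core, 3 immunoproteasome subunits (Psmb8, Psmb9 and Psmb10), 2 subunits restricted to other tissues (Psma8 and Psmb11), 6 cap ATPases (Psmc1 to Psmc6), 3 other subunits of the cap base (Psmd1, Psmd2 and Psmd4), 8 subunits of the cap lid and 3 chaperones of cap assembly (Psmd5, Psmd9 and Psmd10). The 14 constitutive core subunits and the 17 constitutive cap subunits, 31 in all, were set against each other. The cap subunits Adrm1 and Sem1 have other symbols and are not among the 17. Ribosome footprints and input RNA came from cells sorted out of dissociated mouse main olfactory epithelium. Ngn1-GFP cells carry a transgene that marks neuronal progenitors and immature olfactory sensory neurons, and OMP-GFP cells carry a knock-in reporter of mature olfactory sensory neurons. In the Ngn1-GFP KO and OMP-GFP KO groups, both floxed alleles of Mex3a, which codes for an RNA-binding protein with a RING domain, were deleted by a Cre driver. The Ngn1-GFP control and OMP-GFP control groups carried floxed Mex3a (fl/fl, or fl/+ by part of the labels) and no Cre, so that KO and control also differ in the Cre allele. All 4 groups carry a GFP reporter, which differs between the populations. For the OMP-GFP KO the genotype label names OMP-ires-Cre where its description names the GFP reporter, and ages are not given.

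The proteasome degrades proteins tagged with ubiquitin. Its core is a barrel of stacked rings, with outer rings of alpha subunits that gate the entrance and inner rings of beta subunits, of which Psmb5, Psmb6 and Psmb7 cut proteins. The cap binds the tagged protein, removes the ubiquitin chain and threads the protein into the core with a ring of ATPases. A core holds a pair of each alpha and beta subunit and each cap a single copy of its subunits, while cores occur with a cap at both ends, at a single end or at neither. Equal numbers are therefore known within the core and within a cap, and not between core and cap. In neurons the proteasome turns over misfolded and short-lived proteins, and RING proteins such as MEX3 family members are known to attach ubiquitin.

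Each group has 2 footprint libraries by its labels but 1 footprint column and 1 RNA column in the table, so no difference between groups has a replicate check and no p-value was computed. Columns held 3031489 footprints in the Ngn1-GFP KO, 4456989 in the Ngn1-GFP control, 4100841 in the OMP-GFP KO and 3576406 in the OMP-GFP control, beside 27786809, 89327877, 26946592 and 31855259 RNA reads in the same order. Brackets hold 95% counting intervals. They cover counting error only, since reads copied by PCR are not independent molecules. Mex3a had 5.91 RPKM of footprints in the Ngn1-GFP KO against 62.7 in its control, and 0.780 RPKM in the OMP-GFP KO against 2.86 in its control. Neurog1, the progenitor gene behind the first reporter, had 122 and 155 RPKM in the Ngn1-GFP KO and control and at most 2.66 RPKM in OMP-GFP cells. Omp itself was high in all 4 columns, between 5492 and 7302 RPKM. Summed footprint density of 12 sustentacular markers was 647 RPKM in the Ngn1-GFP KO against 4842 in its control, and 413 RPKM in the OMP-GFP KO against 141 in its control. The Ngn1-GFP control column also stood apart in RNA, where the ubiquitin precursor Ubb had 5276 TPM against 1050.5 to 1123 TPM in the other columns. The part of these differences in the results that follow was not tested, and in sorted bulk cells fewer cells of a type and less RNA per cell cannot be told apart.

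The 39 genes together took 0.704% [0.695, 0.714] of the footprints in the Ngn1-GFP KO, 0.697% [0.689, 0.705] in the Ngn1-GFP control, 0.660% [0.653, 0.668] in the OMP-GFP KO and 0.665% [0.656, 0.673] in the OMP-GFP control (Wilson intervals). Their share of RNA reads was 0.407% [0.405, 0.409], 0.390% [0.389, 0.392], 0.396% [0.394, 0.399] and 0.397% [0.394, 0.399] in the same order. The proteasome's share of footprints therefore exceeded its share of RNA in every column. The footprint intervals of KO and control overlapped in both populations. The RNA intervals overlapped in OMP-GFP cells only, and in Ngn1-GFP cells the RNA share was higher in KO. Footprint density is given in RPKM, footprints divided by the kilobases of coding sequence and scaled to the footprint total, and RNA level in TPM, both as the authors' values.

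**Figure D1:**
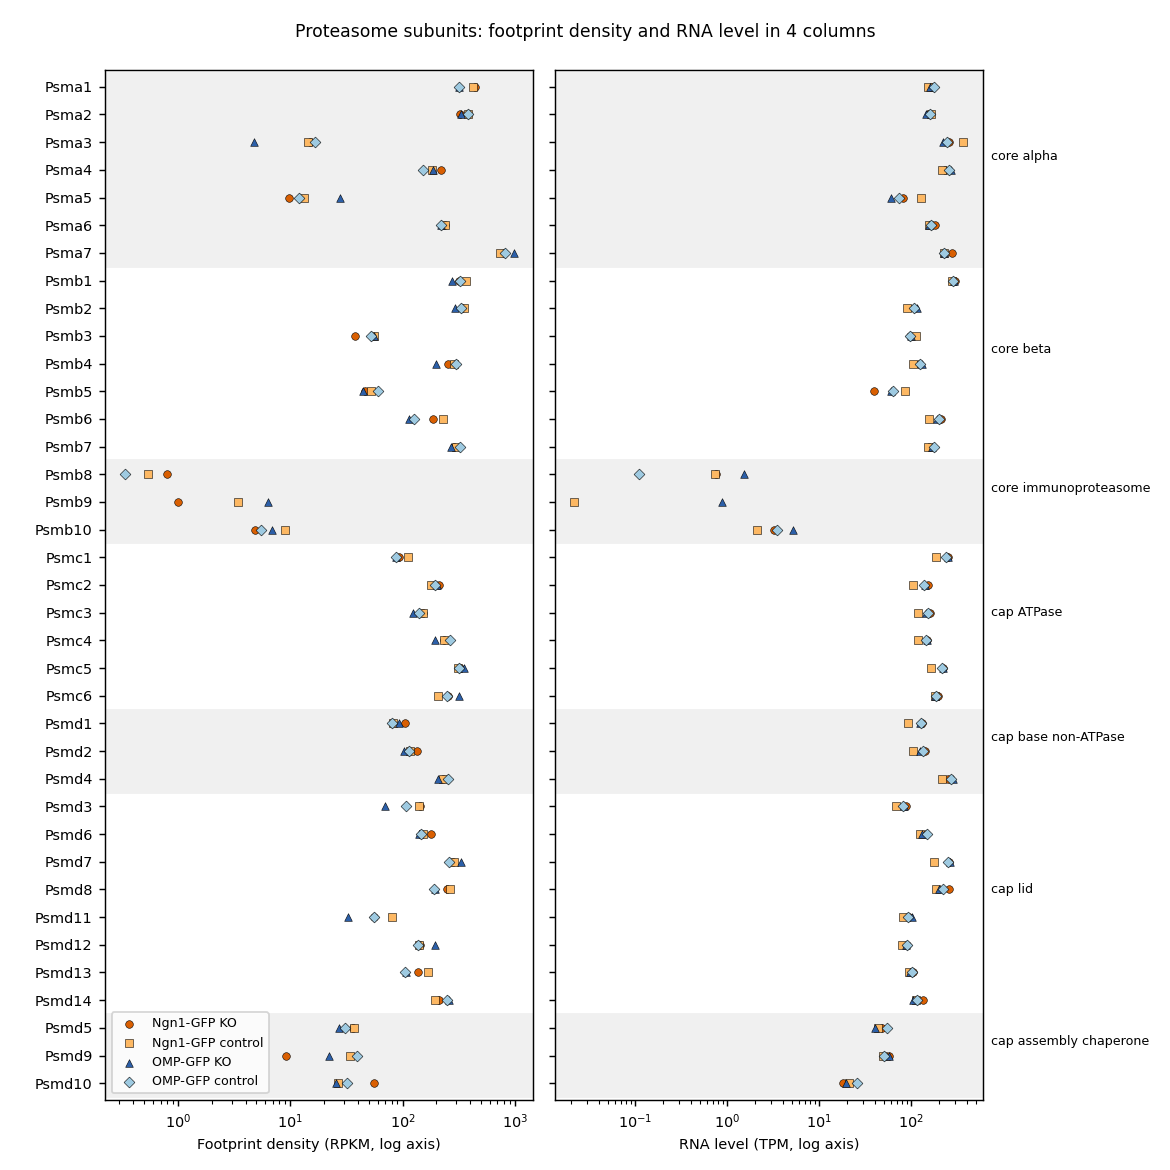
Footprint density (RPKM, left) and RNA level (TPM, right) of the detected proteasome subunits on log axes, with 1 symbol per group and subunits ordered by their place in the particle. The 4 symbols of a subunit mostly overlap, and Psma3 and Psma5 lie far left in footprints but not in RNA. The immunoproteasome subunits have at most 9.01 RPKM and 5.11 TPM, both for Psmb10. Values of 0 are not drawn.

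Core subunits had the higher median footprint density. The core also held Psma3 and Psma5, which lay below each of the 17 cap subunits in every column. The mean of log2 density over subunits and columns does not keep the order of the medians. The median of the 14 core subunits was 247 RPKM in the Ngn1-GFP KO, 262 in the Ngn1-GFP control, 211 in the OMP-GFP KO and 259 in the OMP-GFP control. The median of the 17 cap subunits was 179.6 RPKM, 168, 193 and 145 in the same order. On the log2 scale, core minus cap was 0.46 [0.31, 0.61] in the Ngn1-GFP KO, 0.64 [0.51, 0.76] in the Ngn1-GFP control, 0.12 [-0.02, 0.27] in the OMP-GFP KO and 0.82 [0.67, 0.97] in the OMP-GFP control. These intervals take the counting error of a typical subunit and leave out the spread among subunits. They do not decide whether core and cap differ in a group. Core minus cap was smallest in the OMP-GFP KO and largest in the OMP-GFP control. These are differences of medians over few subunits, and they moved more than the subunits did: over OMP-GFP KO and control, the median ratio of the core subunits was -0.08 and that of the cap subunits 0.11. With all detected members in place of the constitutive ones, the difference was 0.56 in the OMP-GFP KO against 0.40 in the OMP-GFP control, so the order of these groups turned.

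RNA medians differed in the same direction, and by less in all groups but the OMP-GFP KO. Core subunits had a median of 161 TPM in the Ngn1-GFP KO, 153 in the Ngn1-GFP control, 158 in the OMP-GFP KO and 170.0 in the OMP-GFP control. Cap subunits had 149.8, 118, 139.9 and 146 TPM. Core minus cap was 0.10 [0.03, 0.17], 0.37 [0.33, 0.41], 0.18 [0.10, 0.25] and 0.22 [0.15, 0.29] in that order of groups, highest in the Ngn1-GFP control. Footprints per RNA read, the footprint share of a gene over its RNA share, had a core median of 1.81, 1.92, 1.67 and 1.78 and a cap median of 1.78, 1.84, 1.53 and 1.48. Core minus cap in this ratio was 0.02 [-0.15, 0.19], 0.06 [-0.08, 0.19], 0.11 [-0.06, 0.27] and 0.26 [0.09, 0.43], largest in the OMP-GFP control. The intervals for RNA and for this ratio also leave out the spread among subunits. Core and cap medians of this ratio all lay above those of all genes with at least 50 TPM, which were 0.902, 0.991, 0.826 and 0.849. So did those of other complexes described below, the CCT chaperonin, the COP9 signalosome and the translation factor eIF3. The CCT medians were 1.61, 1.75, 1.59 and 1.67, below the cap in both Ngn1-GFP columns and above it in both OMP-GFP columns.

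**Figure D2:**
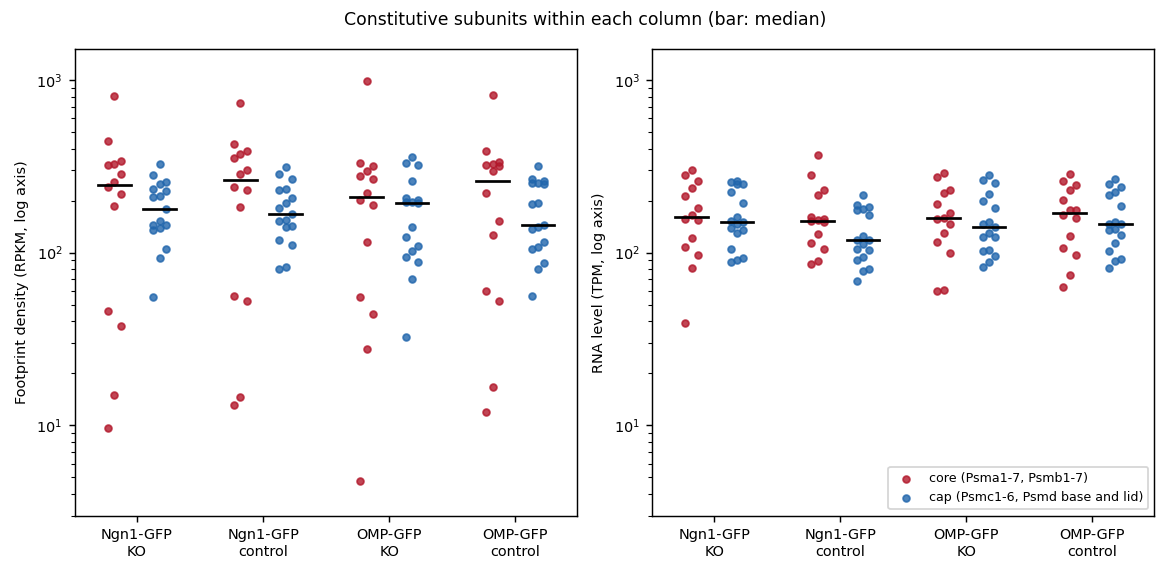
Footprint density (RPKM, left) and RNA level (TPM, right) of the 14 core and 17 cap subunits in each group on log axes, with 1 point per subunit and bars at the medians. Core points spread over 55.6-fold to 207-fold in footprints and 4.28-fold to 7.66-fold in RNA, and the 4 core points below the others in footprints are Psma3, Psma5, Psmb3 and Psmb5 in every group.

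The 31 subunits were uneven, and among them the unevenness lay in the core and in footprints. The cap subunits left out by the symbol rule, Adrm1 and Sem1, were not in these SDs. Adrm1 had 10.2, 10.3, 3.39 and 5.03 RPKM and Sem1 846, 951, 798 and 1155 RPKM. In every column these lay below and above all 17 cap subunits used. Cap SDs therefore hold for the 17 only, and SDs with Adrm1 and Sem1 were not computed. The SD of log2 footprint density over the 31 constitutive subunits was 1.36 [1.28, 1.43] in the Ngn1-GFP KO, 1.27 [1.22, 1.33] in the Ngn1-GFP control, 1.44 [1.35, 1.53] in the OMP-GFP KO and 1.29 [1.23, 1.35] in the OMP-GFP control. Counting error alone was 0.10 or less on this scale. Among core subunits the SD was 1.92, 1.82, 1.94 and 1.79, and among cap subunits 0.65, 0.58, 0.91 and 0.73. In RNA the SD was 0.81, 0.61, 0.71 and 0.68 for the core and 0.54, 0.50, 0.57 and 0.55 for the cap. The 6 ATPases were the most even class in RNA, with SDs of 0.31, 0.36, 0.35 and 0.33 and at most 1.80-fold between the highest and the lowest.

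The spread of the core rested on 4 subunits. Psma3, Psma5, Psmb3 and Psmb5 had the lowest footprint density of the 14 core subunits in each of the 4 columns, and were singled out after their values were seen. Without them, the SD of the other 10 core subunits was 0.60, 0.56, 0.79 and 0.74. Leaving out the lowest values lowers an SD by construction, and nothing was left out of the cap, so this only says where the spread lay.

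The 17 cap subunits were less even in KO than in control in both populations, and the core SD was also higher in KO. The core intervals overlapped. In footprint density the core had 1.92 [1.80, 2.04] against 1.82 [1.73, 1.91] in Ngn1-GFP cells. In OMP-GFP cells the core had 1.94 [1.79, 2.08] against 1.79 [1.69, 1.89]. The cap SD in footprint density was 0.65 [0.62, 0.69] in the Ngn1-GFP KO against 0.58 [0.56, 0.60] in its control, and 0.91 [0.87, 0.94] in the OMP-GFP KO against 0.73 [0.70, 0.76] in its control. In RNA the cap SD was 0.54 [0.53, 0.55] in the Ngn1-GFP KO against 0.50 [0.50, 0.51] in its control, and 0.57 [0.55, 0.58] in the OMP-GFP KO against 0.55 [0.54, 0.56] in its control. By class, RNA of the ATPases was more even in the Ngn1-GFP KO, at 0.31 against 0.36. The other base subunits were too, at 0.52 against 0.67, and so was the lid in the OMP-GFP KO, at 0.60 against 0.62. The remaining cap classes were less even in KO in RNA. In the core, RNA of the beta subunits had 0.727 in the OMP-GFP KO against 0.732 in its control, and 0.94 against 0.60 in Ngn1-GFP cells. The alpha subunits were less even in KO in both populations. Within the cap of mature neurons, the lid had an SD of 1.09 [1.03, 1.15] in the OMP-GFP KO against 0.73 [0.68, 0.78] in the OMP-GFP control, and the ATPases 0.78 [0.73, 0.82] against 0.69 [0.64, 0.74]. The 3 other base subunits went the other way in both populations, with 0.63 [0.57, 0.69] in the OMP-GFP KO against 0.85 [0.79, 0.91] in its control, and 0.57 [0.50, 0.64] in the Ngn1-GFP KO against 0.76 [0.70, 0.81] in its control. Other complexes gave a range of values. The 7 listed subunits of the CCT chaperonin, which folds actin and tubulin, had SDs of 0.66, 0.52, 0.51 and 0.52 in footprint density. The 8 subunits of the COP9 signalosome, a relative of the proteasome lid, had 2.34, 1.90, 1.82 and 1.85 with Gps1 the lowest, and the detected ones of 13 subunits of the translation factor eIF3 had 1.58, 1.97, 0.96 and 0.73. The core SD lay between those of these complexes in all columns but the OMP-GFP KO, where 1.94 was above all of them. Only 12 of the 13 eIF3 subunits entered in the OMP-GFP columns, since a subunit without footprints drops out. In the Ngn1-GFP KO and control all 13 entered, and the lowest, Eif3j1, had 3.78 and 1.43 RPKM. The order in the OMP-GFP KO may therefore depend on the subunit left out.

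The order of the subunits was shared by the columns. Spearman's rho over the 31 subunits was between 0.900 and 0.977 for footprint density and between 0.893 and 0.989 for RNA in the 6 pairs of columns. These points share coding length, sequence and the authors' counting. Within a column, footprint density and RNA level of the cap subunits had Pearson's r of 0.56, 0.61, 0.49 and 0.54 (n = 17 subunits), against 0.44, -0.02, 0.33 and 0.40 in the core (n = 14 subunits).

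Among alpha subunits, Psma7 (chromosome 2, 180036367 to 180042464, RefSeq annotation of GRCm38.p6, as for all positions here) had the highest footprint density of all 31 constitutive subunits in each column. It stood at 808 RPKM in the Ngn1-GFP KO, 731 in the Ngn1-GFP control, 982 in the OMP-GFP KO and 812 in the OMP-GFP control, with 280.3, 229, 229 and 229.6 TPM of RNA. It was higher in KO in both populations, with log2 ratios of 0.21 [0.12, 0.30] in Ngn1-GFP cells and 0.35 [0.27, 0.43] in OMP-GFP cells, well under 2-fold. By mean log2 density Psma1 came next with 439.8, 424, 318 and 317 RPKM, and Psma2 with 324, 385, 331 and 387 RPKM. Both OMP-GFP columns of Psma1 lay below both Ngn1-GFP columns, while Psma2 was the lower in KO in each population. Psma4 and Psma6, which complete the gate and ring, ranged from 153 to 218 and from 220.0 to 239 RPKM.

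Psma3 and Psma5 are alpha subunits with few footprints; Psma3 had high RNA, and Psma5 the lowest RNA of the 7 alpha subunits in every column. Psma3 (chromosome 12, 70969283 to 70995877) had 14.96 RPKM [10.4, 20.8] in the Ngn1-GFP KO, 14.5 [10.8, 19.2] in the Ngn1-GFP control, 4.74 [2.65, 7.81] in the OMP-GFP KO and 16.7 [12.2, 22.2] in the OMP-GFP control, from 35, 50, 15 and 46 footprints. Its RNA stood above the core median in every column, at 259, 368, 223 and 245 TPM. Psma5 (chromosome 3, 108256926 to 108279952) had 9.68 RPKM [6.06, 14.6], 13.2 [9.56, 17.7], 27.6 [22.1, 34.2] and 11.9 [8.16, 16.8] from 22, 44, 85 and 32 footprints, with 81.8, 127, 60.4 and 73.7 TPM. The OMP-GFP KO column was thus the lowest of the 4 for Psma3 and the highest for Psma5, on few footprints in each case.

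Among the beta subunits, Psmb3 and Psmb5 were low. Psmb3 (chromosome 11, 97703434 to 97713500), a structural subunit, had 37.4, 56.3, 55.2 and 52.5 RPKM with 97.4, 114, 99.5 and 96.9 TPM. The chymotrypsin-like subunit Psmb5 (chromosome 14, 54614120 to 54617995) had 46.1, 52.8, 44.2 and 60.1 RPKM with 39.1, 85.99, 60.1 and 63.0 TPM. The other catalytic subunits had more footprints. Psmb6, the caspase-like subunit, had 186 RPKM in the Ngn1-GFP KO, 230.3 in the Ngn1-GFP control, 115 in the OMP-GFP KO and 127 in the OMP-GFP control, so both OMP-GFP columns lay below both Ngn1-GFP columns. Psmb7, the trypsin-like subunit, had 285, 302, 268 and 324 RPKM. Structural subunits Psmb1, Psmb2 and Psmb4 had between 200.3 and 371 RPKM. RefSeq names 6 pseudogenes after 4 of the members, Psma5, Psmb5, Psmb6 and Psmb7. The sources used here do not say how reads with several matches were counted, and their part in the low values was not tested.

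The immunoproteasome subunits, which replace the catalytic ones in immune cells and after interferon, had few footprints and few RNA reads. Psmb8, the replacement of Psmb5, had 2 footprints in the Ngn1-GFP KO, 2 in the Ngn1-GFP control, 0 in the OMP-GFP KO (an upper limit of 0.877 RPKM at 3 counts) and 1 in the OMP-GFP control. Psmb9, the replacement of Psmb6, had 2, 10, 17 and 0 footprints. Psmb10, the replacement of Psmb7, had 12, 33, 23 and 16. In footprint density a replacement made up at most 5.17% of its pair, Psmb9 in the OMP-GFP KO, where Psmb9 also had 11 RNA reads against 0 in the OMP-GFP control. Summed density of 16 immune markers was 85.999 RPKM in the Ngn1-GFP KO, 97.4 in the Ngn1-GFP control, 91.3 in the OMP-GFP KO and 53.6 in the OMP-GFP control, and their RNA sum was 48.0, 52.6, 36.3 and 45.2 TPM. The leukocyte gene Ptprc was at most 1.53 RPKM, and H2-Aa and S100a8 had no footprint in either OMP-GFP column; the part of immune cells in these reads was not tested. Psma8, the alpha subunit of the testis, and Psmb11, the beta subunit of the thymic cortex, had no footprint and no RNA read in any column, with upper limits of at most 1.31 RPKM and 0.209 TPM.

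In the cap, the ATPases unfold the substrate. Psmc5 was the highest, with 325, 315, 356 and 317 RPKM, and Psmc1 the lowest, with 93.5, 111, 88.1 and 87.1 RPKM, although Psmc1 had the most ATPase RNA, at 248, 188, 252 and 241 TPM. The order within the ATPase ring thus differed between footprints and RNA. Of the base, the scaffold subunits Psmd1 and Psmd2 ranged from 80.4 to 105 and from 103 to 135 RPKM. The ubiquitin receptor Psmd4 had 228, 231, 208 and 254 RPKM with 249, 215, 283 and 268 TPM. The lid deubiquitinase Psmd14 had 211, 193, 259 and 249 RPKM with 136, 113, 104 and 114 TPM, and both OMP-GFP columns lay above both Ngn1-GFP columns in footprints.

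Some lid subunits were lower and some higher in the OMP-GFP KO than in its control. Psmd11, the lowest of the 17 cap subunits in every column, had 55.6 RPKM in the Ngn1-GFP KO and 80.7 in the Ngn1-GFP control. In the OMP-GFP KO Psmd11 had 32.6 RPKM and in the OMP-GFP control 56.1. Its log2 ratio was -0.47 [-0.70, -0.24] in Ngn1-GFP cells and -0.70 [-0.98, -0.43] in OMP-GFP cells, while its RNA ratio was -0.02 and 0.19. Psmd3 had 144, 142, 70.4 and 107 RPKM, lowest in the OMP-GFP KO with a ratio of -0.53 [-0.71, -0.36] there. Psmd12 had 144, 141, 196 and 136 RPKM, highest in the OMP-GFP KO with a ratio of 0.61 [0.47, 0.74], and Psmd7 had 280.0, 285, 329 and 258 RPKM with a ratio of 0.43 [0.30, 0.55]. None of these reached 2-fold. Psmd6, Psmd8, Psmd13 and Psmd14 had ratios between 0.02 and 0.13 in OMP-GFP cells. Footprint ratios of the 17 cap subunits there had an SD of 0.35, against 0.34 in genes of like counts, so their spread was near the background. The RNA ratios of Psmd3, Psmd7, Psmd11 and Psmd12 in OMP-GFP cells were between 0.02 and 0.19.

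Chaperones of cap assembly bind the ATPases before they join the core and leave the finished particle. They were low in footprints. Psmd9 (chromosome 5, 123228190 to 123250126) had 9.25 RPKM [5.73, 14.1] in the Ngn1-GFP KO, 34.1 [28.2, 41.0] in the Ngn1-GFP control, 22.1 [17.2, 28.1] in the OMP-GFP KO and 39.2 [32.1, 47.5] in the OMP-GFP control, from 21, 114, 68 and 105 footprints. Both KO columns lay below their controls, while its RNA was 57.5 TPM in the Ngn1-GFP KO against 49.6 in its control, and 57.0 in the OMP-GFP KO against 50.01 in its control. Psmd10 (X chromosome, 140948425 to 140956711), also known as gankyrin, had 55.9 RPKM [46.3, 67.0], 26.8 [21.3, 33.2], 25.6 [20.05, 32.2] and 32.1 [25.5, 40.0] from 118, 83, 73 and 80 footprints. The Ngn1-GFP KO column stood above the other 3. Psmd5 had 36.4, 36.9, 27.04 and 30.6 RPKM.

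Footprints per RNA read placed most subunits above the typical gene. Psmb2 had 4.51, 5.05, 3.62 and 4.53, above 97.9% to 98.8% of the genes with at least 50 TPM in its column. Psma7 had 4.16, 4.08, 6.07 and 5.09, above 97.3% to 99.5%. At the other end Psma3 had 0.0832, 0.0503, 0.0301 and 0.0977, with 1.74%, 1.79%, 0.842% and 2.57% of genes below it. Psma5 had 0.171, 0.132, 0.647 and 0.233, with 4.97%, 4.90%, 38.9% and 9.82% of genes below it, highest in the OMP-GFP KO. Psmc1 had 0.544, 0.755, 0.495 and 0.521, the lowest of the 17 cap subunits in 3 of the 4 columns. In the OMP-GFP KO Psmd11 lay below it at 0.453.

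**Figure D3:**
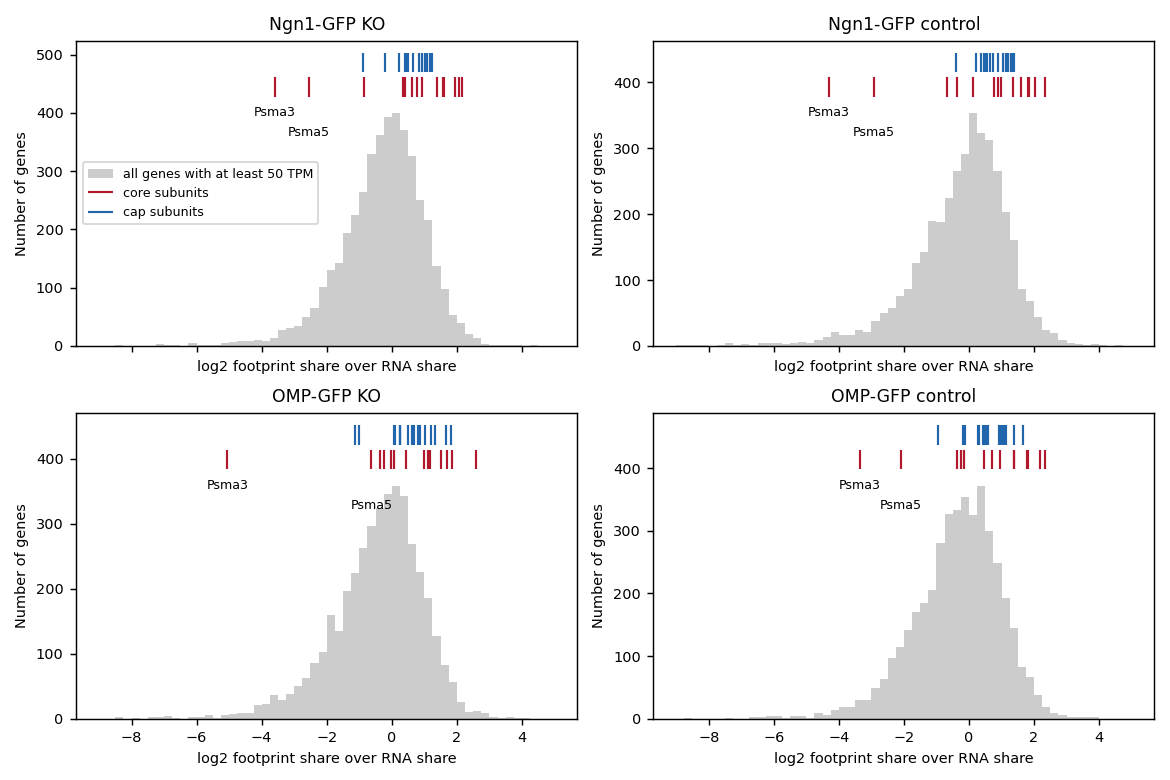
Footprints per RNA read (log2 of footprint share over RNA share, horizontal axis) of all genes with at least 50 TPM as grey histograms (number of genes, vertical axis), with 1 tick per core subunit (red) and cap subunit (blue) set above them at arbitrary height. Most ticks lie right of the middle of the histogram, with Psma3 and Psma5 far left of the other core ticks in 3 of the 4 groups and Psma3 alone in the OMP-GFP KO.

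Between KO and control, counts were scaled by TMM, a trimmed mean over genes that evens out library composition, and a gene was called where it had at least 20 counts in the pair, lay at least 2-fold apart and had a counting interval that excluded no difference. In Ngn1-GFP cells 2 of 35 measured members were called in footprints, against 17.3% of all 12554 genes measured (6.49% higher and 10.8% lower in KO): Psmd10 at 1.13 [0.71, 1.55] and Psmd9 at -1.82 [-2.56, -1.14]. In RNA 1 of 36 members was called, against 15.7% of genes (4.49% higher, 11.3% lower): Psmb5 at -1.37 [-1.49, -1.25]. Psmb5 footprints had a ratio of -0.13 [-0.48, 0.22]. In footprints per RNA read 4 of 35 members were called, against 17.6% of genes (7.99% higher, 9.62% lower). Psmb5 stood at 1.24 [0.88, 1.60] and Psmd10 at 1.59 [1.14, 2.05], while Psmd9 stood at -1.80 [-2.48, -1.12] and Psmb10 at -1.21 [-2.27, -0.15].

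In OMP-GFP cells 2 of 35 members were called in footprints, against 15.7% of all 11160 genes measured (7.12% higher, 8.54% lower). Psma5 was higher in KO at 1.29 [0.69, 1.92] and Psma3 lower at -1.74 [-2.68, -0.87], both alpha subunits of the same ring. In RNA 1 of 36 was called, against 8.29% of genes (4.4% higher, 3.89% lower): Psmb8, with 24 reads in KO and 2 in control, at 3.84 [1.83, 6.97]. In footprints per RNA read the same alpha subunits were called, against 15.9% of genes (7.09% higher, 8.85% lower), Psma5 at 1.53 [0.93, 2.13] and Psma3 at -1.64 [-2.48, -0.79]. With at least 100 counts in the pair, Psma3 dropped out and 1 footprint call was left.

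The median member ratio in footprints was 0.05 in Ngn1-GFP cells and 0.02 in OMP-GFP cells, against 0.00 over all genes in each, and scaling by library size alone turned the member medians to -0.02 and -0.05. Of the 31 constitutive subunits, 30 lay within 0.5 of no difference (log2) in Ngn1-GFP cells and 26 in OMP-GFP cells. Among genes with footprint counts as high as the middle of the set, 88.98% and 84.5% did, so the share of subunits (96.8% and 83.9%) was near the background in OMP-GFP cells. The SD of the 31 ratios was 0.24 in Ngn1-GFP cells, against 0.36 in genes of like counts. In OMP-GFP cells it was 0.50, against 0.34 in genes of like counts, with 0.64 in the core and 0.35 in the cap. Those genes had 1059.5 to 2053 footprints in the pair. Psma3, with 15 in KO and 46 in control, and Psma5, with 85 and 32, lay far below that range. The background does not match these subunits, so it does not decide whether the core ratios were more spread than those of comparable genes. In RNA the SD was 0.36 in Ngn1-GFP cells and 0.10 in OMP-GFP cells, with 28 and 31 of the 31 within 0.5. Genes of like RNA counts had SDs of 1.19 and 0.16, with 91.0% and 99.3% within 0.5, so these shares were near the background.

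The signs of the core and cap ratios were counted. In Ngn1-GFP cells 5 of 14 core and 13 of 17 cap subunits had a footprint ratio above 0, and 3 of 14 core and 11 of 17 cap subunits did in RNA. In OMP-GFP cells the counts were 6 of 14 and 11 of 17 in footprints, and 6 of 14 and 10 of 17 in RNA. Median core and cap ratios in footprints were -0.06 and 0.09 in Ngn1-GFP cells, and -0.08 and 0.11 in OMP-GFP cells. Over all genes 49.8% and 50.3% of the footprint ratios and 52.6% and 49.7% of the RNA ratios were above 0. The medians lay within the SDs of the footprint ratios (0.23 for core and 0.23 for cap in Ngn1-GFP cells, 0.64 and 0.35 in OMP-GFP cells), and a difference between core and cap was not tested.

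**Figure D4:**
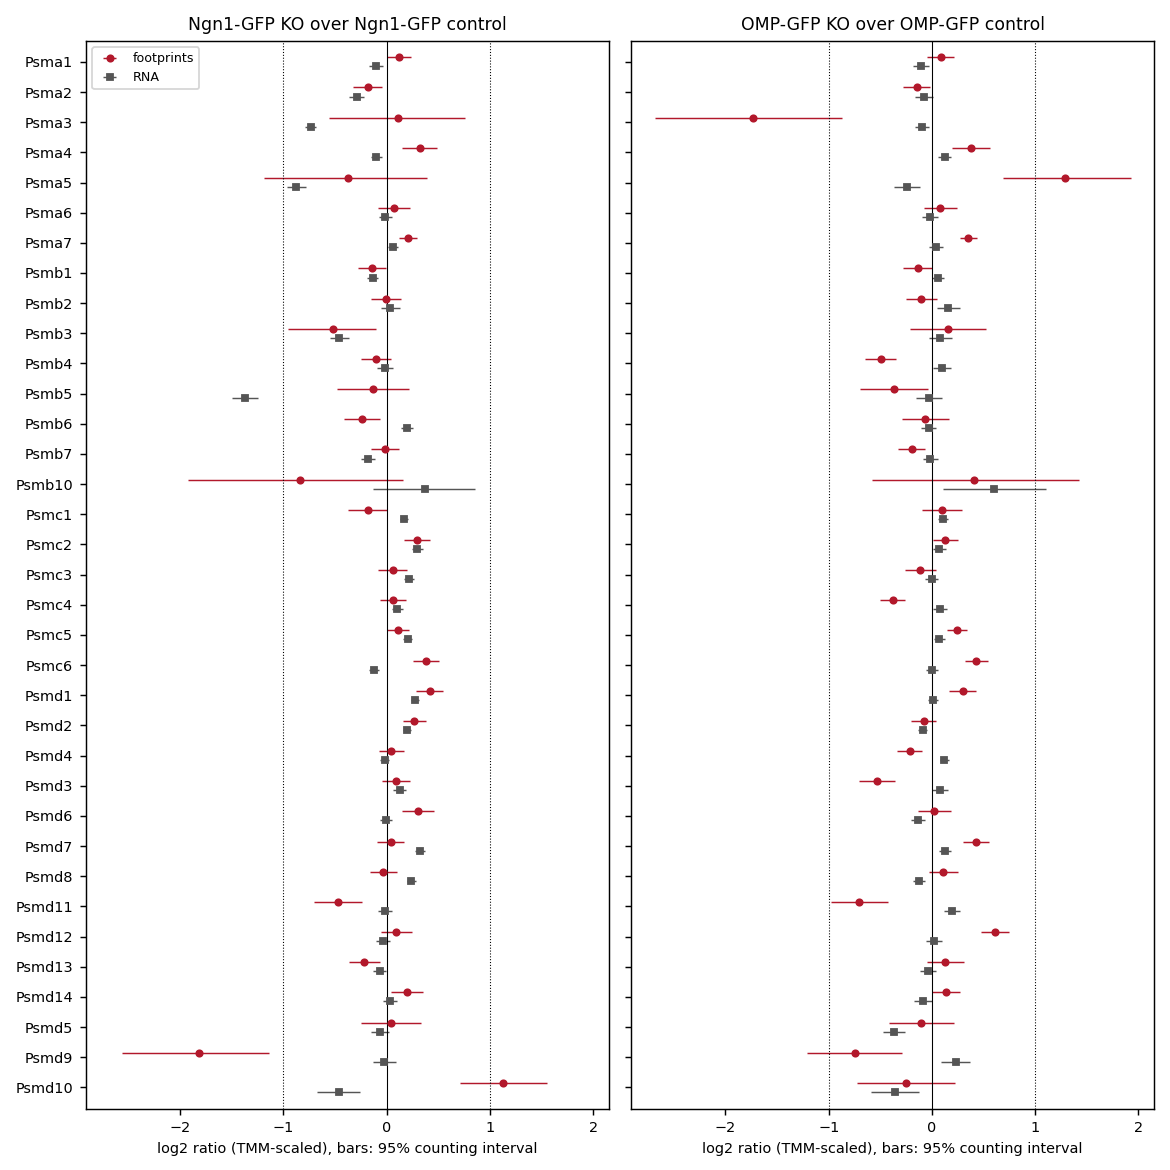
TMM-scaled log2 ratio of KO over control in Ngn1-GFP cells (left) and OMP-GFP cells (right), 1 row per measured subunit, with footprints in red and RNA in grey; bars are 95% counting intervals and dotted lines mark 2-fold. Psmd9 and Psmd10 lie beyond the lines in footprints on the left, Psma3 and Psma5 on the right, and Psmb5 is the RNA value beyond the line on the left; Psmb8 is not drawn.

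The RNA of the 4 core subunits with few footprints also stood lower in the Ngn1-GFP KO than in its control. Their log2 RNA ratios were -1.37 for Psmb5, -0.87 [-0.96, -0.78] for Psma5, -0.74 [-0.79, -0.69] for Psma3 and -0.46 [-0.55, -0.37] for Psmb3, and the next constitutive subunit was Psma2 at -0.29. In OMP-GFP cells their RNA ratios were -0.03, -0.24, -0.10 and 0.08. OMP-GFP control over Ngn1-GFP control gave -0.58, -0.92, -0.72 and -0.36 for the same genes. Both comparisons share the Ngn1-GFP control column, in which Ubb and Rps27a, both precursors of ubiquitin, were also high in RNA. Whether a feature of that column underlies these ratios was not tested.

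Between populations, 0 of 35 members were called in footprints in the controls (OMP-GFP over Ngn1-GFP), where 23.5% of genes were (6.11% higher, 17.4% lower). Constitutive subunits ranged from -0.64 [-0.84, -0.45] for Psmb6 to 0.58 [0.44, 0.72] for Psmd14. In RNA 1 of 36 members was called, against 26.8% of genes (3.49% higher, 23.3% lower): Psmb8 at -2.89 [-5.99, -0.95], with 2 reads in OMP-GFP and 43 in Ngn1-GFP control cells. In footprints per RNA read 2 of 35 were called, against 14.2% of genes (5.92% higher, 8.32% lower), Psma3 at 1.13 [0.55, 1.71] and Psmb10 at -1.09 [-2.06, -0.12]. Scaled by library size alone, Psma3 was not called and Psmb6 was called lower instead. The 31 subunits had an SD of 0.28 in footprint ratios, against 0.66 in genes of like counts. The members' ratios were thus closer together than those of genes of like counts.

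In the KO pair of populations (OMP-GFP KO over Ngn1-GFP KO), 3 of 35 members were called in footprints, against 29.6% of genes (11.3% higher, 18.4% lower). They were Psma5 at 1.74 [1.05, 2.49], Psmd9 at 1.48 [0.76, 2.27] and Psma3 at -1.43 [-2.41, -0.52]. In RNA 1 of 36 was called, Psmb8 at 1.16 [0.11, 2.30], against 21.2% of genes (4.77% higher, 16.4% lower). In footprints per RNA read 4 of 35 were called, against 21.7% of genes (9.43% higher, 12.2% lower), Psma5 at 2.03, Psmd9 at 1.35, Psmd10 at -1.16 and Psma3 at -1.36. The median member footprint ratio was 0.15 in the controls and 0.06 in the KO pair. It turned to -0.069 and -0.16 under library size alone, so no direction of the whole set is given.

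Of 32 further genes of the pathway, 31 were measured in footprints in each comparison, with these calls to be read against the shares of all genes given above for each comparison. In the Ngn1-GFP KO against control 0 were called. In the OMP-GFP KO against control 1 was higher and 1 lower, Psme2 of the interferon-inducible activator ring at 1.13 [0.46, 1.83] and the ubiquitin shuttle Ubqln4 at -1.02 [-1.57, -0.49]. In controls between populations 0 were higher and 1 lower, Psmg3, a chaperone of core assembly, at -1.01. In the KO pair 2 were higher and 2 lower: Psme2 at 2.62, Psmg1, another core assembly chaperone, at 1.30, the ubiquitin receptor Adrm1 at -1.37 and Ubqln4 at -1.65. In RNA 1 was higher and 2 lower of 32 in the Ngn1-GFP KO against control, Ubqln4 at 1.77, Ubb at -2.56 and Rps27a at -1.43. The 2 lower between controls were Ubb at -2.44 and Rps27a at -1.66, and 0 were called in RNA in the other comparisons. The small lid subunit Sem1 had 846, 951, 798 and 1155 RPKM, above every member except Psma7 in the OMP-GFP KO. The core maturation factor Pomp had 224, 179.7, 336 and 220.2 RPKM. Nfe2l1, the transcription factor that raises subunit genes when the proteasome is inhibited, had 42.5, 54.2, 41.7 and 58.5 RPKM, with the lower value in KO in both populations and no call.

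Antioxidant response elements in subunit promoters are the known sites of Nfe2l1. The motif TGACNNNGC was searched on both strands of the RefSeq promoter sequences (GRCm38.p6, 250 bases before to 50 after a start). It was in 5 of 34 promoters of the 32 members with an entry (14.7%), against 12.4% of 32851 promoters of all genes, which is near the background. The 5 genes were Psmb5, Psmb6, Psmc6, Psmd12 and Psmd9. The windows of Psmb5 and Psmd9 are shown since these were the members called lower in the Ngn1-GFP KO, in RNA and in footprints; capitals mark the motif. They lie at chr14:54618008-54618067 on the minus strand and chr5:123228130-123228189 on the plus strand, read 5′ to 3′ along the gene.
Psmb5: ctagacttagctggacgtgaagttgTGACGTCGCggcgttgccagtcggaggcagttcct
Psmd9: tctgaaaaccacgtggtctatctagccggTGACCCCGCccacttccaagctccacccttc
The motif starts 47 bases before the start of Psmb5 and 31 before that of Psmd9, and both copies run along the gene strand. Matches are letters only, and binding was not measured.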

How the data were processed

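Footprints and input RNA of sorted olfactory cells were analysed from 1 deposited table of 22553 genes and 24 value columns. Per the file headers, the authors gave each group raw counts of footprints and of RNA reads over coding sequences, the coding length, footprint RPKM, RNA TPM and a translational efficiency ratio. FastQC, cutadapt and STAR with the mouse genome mm10 are named in the submitters' processing notes, without versions. The sources used here do not say how 2 libraries became 1 column. The deposited RPKM and TPM could be rebuilt from the counts and coding lengths. Dividing a gene's share of footprints by its share of RNA reads gives the authors' ratio up to a constant (1.34, 1.34, 1.38 and 1.33 in the Ngn1-GFP KO, Ngn1-GFP control, OMP-GFP KO and OMP-GFP control), and that quotient is used here.

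Counts were scaled by TMM (edgeR 4.0.16, R 4.3.3) after filterByExpr (count 10, total 15), which kept 13479 genes of the footprint counts and 16388 of the RNA counts. Ratios carry exact conditional binomial 95% intervals; those of footprints per RNA read, of medians and of SDs are approximate. A 0 was set to 3 counts. Other scalings tried were library size by itself, size factors of DESeq2 1.42.0 and TMM leaving out genes of receptors, mitochondria and ribosomal proteins. Other choices were no filter, at least 100 counts, at least 1.5-fold, a coding length shortened by 90 bases and other sets of subunits. The ratio script was tested on simulated data. Python 3.11.15, numpy 2.4.6, pandas 2.3.3, scipy 1.17.1 and matplotlib 3.10.9 were used. All 39 members matched the RefSeq table.

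Members, lists and the motif were chosen with earlier results of these data known. Values in all columns are given for members called in any pair, the 3 highest and 3 lowest constitutive subunits by mean log2 RPKM, the catalytic subunits and their replacements, Psma8, Psmb11, Psmd4 and Psmd14, and pathway genes called in footprints; other named genes were chosen after their values were seen. Tests assumed for separate libraries were not run, since the columns are per group. The name of the Cre driver and some genes of the pathway are not reported here.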

Additional observations from a re-analysis of the deposited data

Results flagged for a closer look

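The effect of the deletion differed between the populations by at least 2-fold, with an approximate counting interval that excluded no difference, for 4 of 35 members in footprints and 2 of 36 in RNA. Over all genes 22.0% of 10845 in footprints and 13.6% of 14292 in RNA differed as much, so the members' shares were not above the background. None was tested over replicates, since each group has 1 column. In footprints the KO effect in OMP-GFP cells minus that in Ngn1-GFP cells was -1.84 [-2.89, -0.80] for Psma3, from -1.74 in OMP-GFP cells and 0.11 in Ngn1-GFP cells. For Psma5, the other low alpha subunit, it was 1.67 [0.72, 2.61], from 1.29 and -0.38. For the assembly chaperone Psmd9 it was 1.07 [0.27, 1.87], from -0.75 and -1.82, so both populations had fewer footprints in KO. For Psmd10 it was -1.38 [-1.99, -0.77], from -0.25 and 1.13. In RNA it was 1.34 [1.17, 1.52] for Psmb5, from -0.03 and -1.37. For Psmb8 it was 4.06 [1.78, 6.33], from 3.84 on 24 and 2 reads in OMP-GFP KO and control and -0.21 on 12 and 43 reads in Ngn1-GFP KO and control.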

How the results depend on the processing

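With 1 column per group, no replicate could be left out. No paired analysis was possible because the columns carry no replicate numbers. Pairs are given in the order Ngn1-GFP KO over control, OMP-GFP KO over control, OMP-GFP over Ngn1-GFP controls and OMP-GFP over Ngn1-GFP KO. At 1.5-fold, RNA calls were 3, 2, 3 and 3 (1 each at 2-fold), footprint calls in the last 3 pairs were 5, 1 and 7 (2, 0 and 3) and calls in footprints per RNA read there were 6, 6 and 10 (2, 2 and 4). With at least 100 counts these pairs had RNA calls of 0, 0 and 0 and footprint-per-RNA calls of 1, 0 and 2, and footprint calls were 1 in OMP-GFP KO over control and 1 in the KO pair. Library size alone put the median member footprint ratio at -0.069 in the controls (0.15 under TMM) and -0.16 in the KO pair (0.06), with 5 footprint calls and 0 RNA calls in that pair. DESeq2 size factors, TMM without the named gene classes and no filter left the members' medians and call counts within their limits.

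In the order Ngn1-GFP KO, Ngn1-GFP control, OMP-GFP KO, OMP-GFP control, the SD over all detected members was 2.33, 2.14, 1.80 and 2.10 in footprint density and 1.75, 2.62, 1.90 and 2.06 in RNA. Without the lowest and the highest subunit it was 1.09, 1.05, 1.03 and 1.05 in footprints and 0.54, 0.49, 0.57 and 0.55 in RNA. Without Psma3, Psma5, Psmb3 and Psmb5, chosen after seeing the data, it was 0.76, 0.73, 0.95 and 0.85 in footprints and 0.52, 0.53, 0.53 and 0.52 in RNA. Core minus cap was then 0.75, 0.96, 0.50 and 1.14 in footprints, 0.20 in RNA of the Ngn1-GFP KO and 0.66, 0.59, 0.53 and 0.82 in footprints per RNA read; the core lost its lowest values and the cap none, so these rises follow from the choice. Over all detected members, core minus cap was 0.56 in the OMP-GFP KO and 0.40 in the OMP-GFP control in footprints, 0.47 in RNA of the Ngn1-GFP control, and 0.26, 0.40 and 0.52 in footprints per RNA read of the Ngn1-GFP control, OMP-GFP KO and OMP-GFP control. A coding length shortened by 90 bases kept core minus cap in footprints between 0.20 and 0.88 and the SD between 1.28 and 1.44. Beyond the sets and minimums themselves, the cause of these shifts was not tested.

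Footprint counts limit Psma3, Psma5, Psmd9 and Psmd10, which had 15 to 118 footprints in a column, and Psmb8, Psmb9 and Psmb10, which had 0 to 33. Intervals leave out the spread between animals and libraries.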

Other observations

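Beyond the proteasome, low footprints per RNA read in OMP-GFP cells went together with lower RNA in the Ngn1-GFP KO than in its control. Among genes with at least 50 TPM in both OMP-GFP columns, 153 had RNA at least 1.5-fold lower in the Ngn1-GFP KO than in its control. These had a median of 0.311 footprints per RNA read (share over share) in the OMP-GFP KO and 0.373 in the OMP-GFP control. The 3870 other genes had 0.845 and 0.883. Of the 153 genes, 41.2% and 32.7% lay below 0.2, against 8.24% and 6.82% of the others. Psma3 lay below 0.2 in both columns, and Psma5 above it at 0.647 and 0.233. Psmb5, with the lowest RNA ratio of the constitutive subunits at -1.37, went the other way. Its footprints per RNA read were 1.04 and 1.37, above the medians of the 3870 other genes. The grouping was chosen after the subunits were seen and uses RNA of Ngn1-GFP cells against footprints and RNA of OMP-GFP cells. None of the 12 sustentacular markers, whose median RNA ratio in the Ngn1-GFP KO against control was -2.38, reached 50 TPM in both OMP-GFP columns, so they are not among the 153. No test was made.

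Rps27a, a fusion of ubiquitin and a ribosomal protein, also had few footprints beside RNA that was lower in the Ngn1-GFP KO than in its control. It had 0, 1, 0 and 0 footprints in the Ngn1-GFP KO, Ngn1-GFP control, OMP-GFP KO and OMP-GFP control beside 275, 631, 226 and 219 TPM of RNA. The gene was picked after its values were seen, and the cause was not tested.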
